A study of Mus musculus with 6 samples.

Results

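Transcripts of 9 genes that mark the making of new neurons in the adult hippocampus were followed in the ventral hippocampus of mice: Dcx, Sox11, Sox4, Neurod1, Eomes, Igfbpl1, Draxin, Mki67 and Top2a. They were chosen by name, as genes of dividing progenitors, neuroblasts and immature granule neurons, and are 9 of the 56941 identifiers in the deposited count table. Poly(A) RNA of 6 mice was sequenced, 3 with the genotype label NEGR1_overexpression and 3 with NEGR1_control. NEGR1 is a neuronal adhesion molecule of the IgLON family, and the study asked how raised NEGR1 relates to memory and to anxiety-like and depression-like behaviour. The sources used here do not say how the overexpression was made, nor the strain, sex and age of the mice. Age matters for reading levels of these genes, because the making of new granule neurons declines as mice grow older.

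New granule neurons arise in the subgranular zone of the dentate gyrus. Radial glia-like stem cells give rise to dividing intermediate progenitors, these become neuroblasts, and neuroblasts mature through an immature stage into granule cells. Mki67 encodes Ki-67, a coat of mitotic chromosomes, and Top2a encodes topoisomerase II alpha, which untangles DNA when chromosomes separate. Eomes, also called Tbr2, is a transcription factor of intermediate progenitors. Igfbpl1 encodes a secreted relative of the insulin-like growth factor binding proteins and is a neuroblast marker. Draxin encodes a secreted axon guidance protein that binds the netrin receptor Dcc. Dcx encodes doublecortin, a microtubule-binding protein of migrating and immature neurons, and Sox4 and Sox11 are paired members of the SoxC family of transcription factors. Neurod1 encodes a transcription factor needed for granule neurons to mature and survive, and mature granule cells keep some of it.

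Among the members, the 2 genes of cell division held the most CHR elements in the DNA before their start sites. The 250 bases before the RefSeq start (build GRCm38.p6) were searched on both strands for the CHR element of cell cycle genes (TTTGAA or TTCGAA), which MuvB complexes bind, and for the CCAAT box, which NF-Y binds. Promoters were listed for 8 of the 9 members. The Top2a promoter (chr11:99024190-99024439, minus strand) held 4 CHR and 6 CCAAT matches, and the Mki67 promoter (chr7:135716380-135716629, minus strand) held 2 and 3. Of 32851 listed mouse promoters of that length, 17.1% held a CHR match and 33.8% a CCAAT match, 0.0183% (6 promoters) held at least 4 CHR matches and 0.0578% (19 promoters) at least 6 CCAAT matches. At least 2 CHR matches were in 1.98% of promoters and at least 3 CCAAT matches in 2.79%. Sox11 (chr12:27342719-27342968, minus strand) held 1 match of each kind. Dcx has 2 listed starts, and the more upstream one (chrX:143933220-143933469, minus strand) had 1 CCAAT and 0 CHR matches. These 4 are shown 5′ to 3′ because the results on dividing cells and on Dcx and Sox11 follow, with CHR and CCAAT matches in capitals, among which none overlap.
Top2a: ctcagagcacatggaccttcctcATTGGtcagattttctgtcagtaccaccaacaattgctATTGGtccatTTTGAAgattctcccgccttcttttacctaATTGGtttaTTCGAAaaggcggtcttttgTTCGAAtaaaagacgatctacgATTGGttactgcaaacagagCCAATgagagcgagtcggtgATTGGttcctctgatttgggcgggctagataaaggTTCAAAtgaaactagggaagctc
Mki67: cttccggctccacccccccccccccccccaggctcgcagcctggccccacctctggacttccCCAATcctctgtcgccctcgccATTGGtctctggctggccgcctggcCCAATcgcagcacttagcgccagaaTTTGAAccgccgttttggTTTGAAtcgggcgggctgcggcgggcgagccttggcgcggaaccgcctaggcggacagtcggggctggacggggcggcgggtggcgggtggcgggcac
Sox11: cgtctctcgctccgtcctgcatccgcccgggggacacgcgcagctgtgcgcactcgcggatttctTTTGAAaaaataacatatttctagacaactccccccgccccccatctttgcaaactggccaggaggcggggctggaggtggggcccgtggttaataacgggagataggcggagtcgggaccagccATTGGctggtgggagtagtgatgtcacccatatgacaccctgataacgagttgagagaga
Dcx: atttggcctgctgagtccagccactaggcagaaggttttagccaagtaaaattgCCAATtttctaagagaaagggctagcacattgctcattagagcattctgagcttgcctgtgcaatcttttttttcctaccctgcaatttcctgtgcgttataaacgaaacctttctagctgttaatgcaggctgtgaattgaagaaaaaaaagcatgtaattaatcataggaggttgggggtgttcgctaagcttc
Sox4 held 4 CCAAT matches, Eomes 2, and Neurod1 and Draxin 0 of either kind. The E-box CANNTG, bound by factors of the Neurod1 class, had 3 matches in the Top2a window, 2 in Sox11, 1 each in Sox4, Neurod1 and Draxin, and 0 in Dcx, Eomes and Mki67, against 66.2% of promoters with at least 1. The core of SoxC sites, ACAAAG, had 2 matches in Draxin and 1 at the second Dcx start, against 16.5% of promoters with at least 1. Overlap of these last motifs with others was allowed. Matches are letters in a window and were not tested as binding sites.

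The libraries held 30726110 to 38108394 counts, and edgeR's filter on low counts left 19354 genes to test. Values are normalised read counts (CPM, each count relative to its library's total) after TMM scaling, which sets libraries to a common scale, and folds are overexpression over control. Negr1 itself had 185, 199 and 195 CPM in the overexpression libraries and 181, 168 and 180 CPM in the control libraries, a fold of 1.09 that did not pass edgeR's test (adjusted p = 0.488). The direction is that of the labels, and the groups did not overlap for Negr1, as for 15.1% of all tested genes. An exact permutation test over the libraries gave p = 0.1, the smallest that 3 libraries against 3 allow. Markers of neurons (Rbfox3, Slc17a7, Camk2a, Snap25 and Syt1) were present in every library, as were Prox1 of granule cells and Fibcd1 of pyramidal cells. The choroid plexus list stood out in overexpression replicate 1, where its 7 genes summed to 729 CPM, of which Ttr had 640 CPM. The sums were 46.5 and 68.2 CPM in overexpression replicates 2 and 3 and 23.5 to 48.1 CPM in the control libraries.

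None of the 9 members passed the test between overexpression and control. In edgeR's quasi-likelihood test 0 of the 8 members with enough counts had an adjusted p under 0.05, where 0.0465% of all tested genes did (9 genes). DESeq2 and limma-voom also called 0 of the 8, where they called 0.553% and 0.0258% of the genes they tested. Sox11 alone had an unadjusted p under 0.05, where 9.24% of tested genes did. The groups overlapped for all 9 members, while they did not overlap for 15.1% of tested genes. The fold was above 1 for 7 of the 8 tested members and below 1 for Draxin, against 50.4% of tested genes above 1. Their log2 fold changes had a median of 0.14, against 0.0015 over all tested genes. Because the tissue was sequenced in bulk, fewer cells of a type and less RNA per cell cannot be told apart in any value below.

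**Figure D1:**
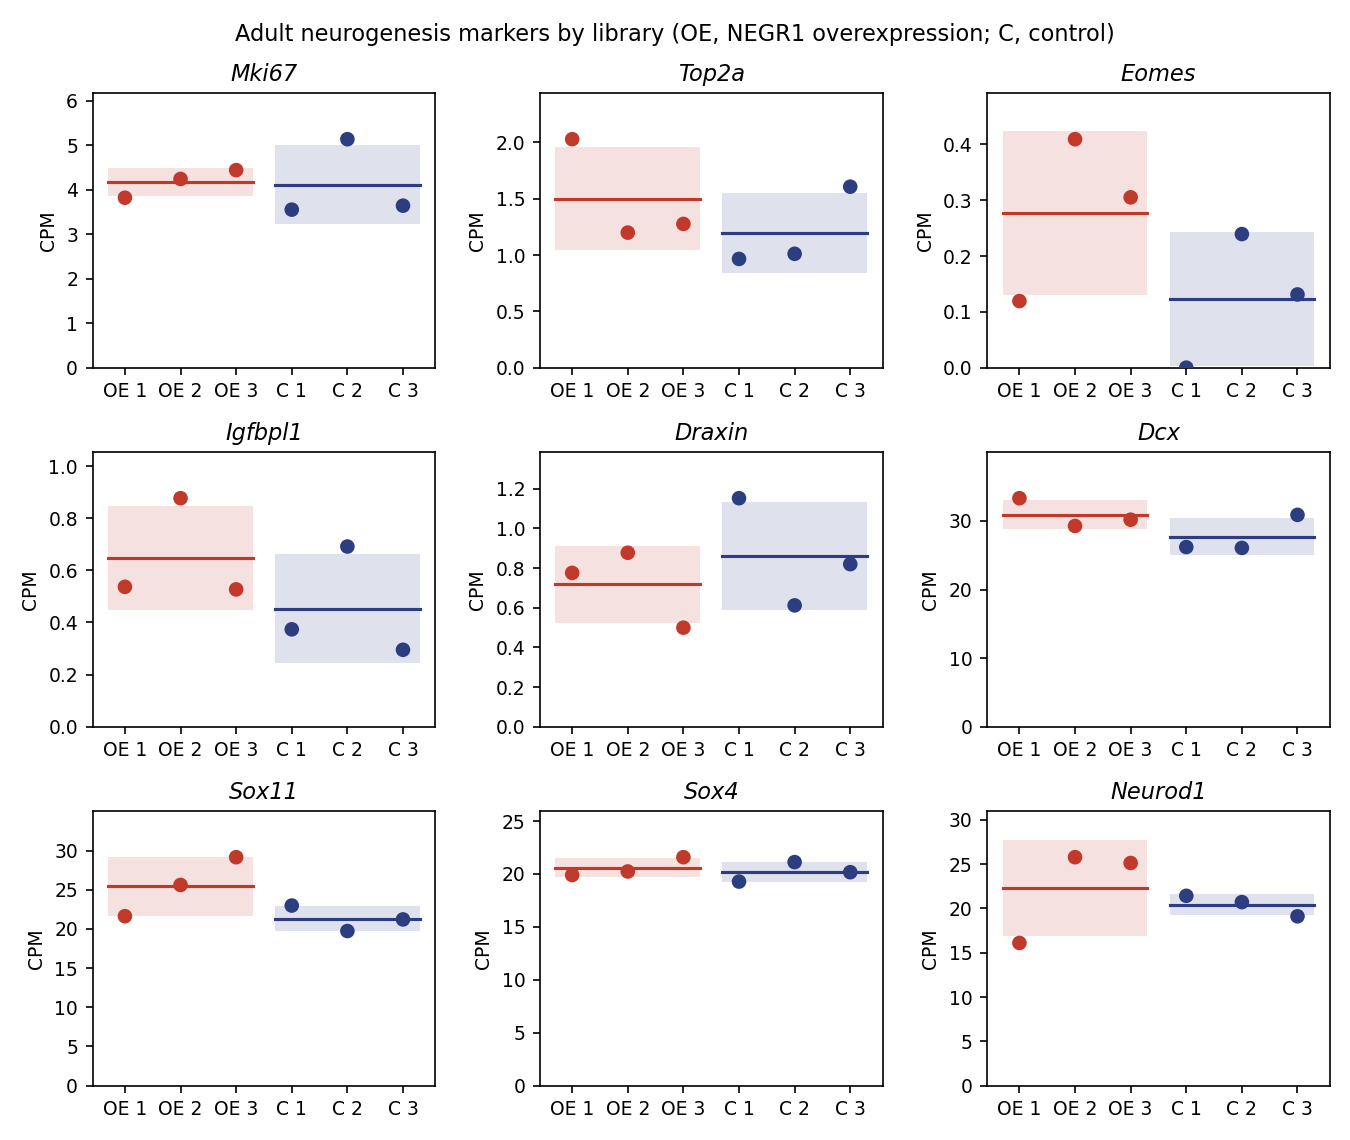
CPM of each of the 9 members (y axis, from 0) in the 3 overexpression libraries (OE, red) and the 3 control libraries (C, blue), with the group mean as a line and 1 SD as a band. The points of both groups overlap in every panel, most tightly for Sox4, between 19.3 and 21.6 CPM.

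Among genes of dividing cells, Mki67 was at nearly the same mean in both groups and Top2a varied by library. Mki67 had 3.82, 4.24 and 4.44 CPM in the overexpression libraries and 3.55, 5.13 and 3.64 CPM in the control libraries. Control replicate 2 was the highest of the 6, and the other 2 control libraries were the lowest. The means were 4.17 ± 0.317 and 4.11 ± 0.889 CPM (SD, n = 3), a fold of 1.01 with a 95% interval of 0.782 to 1.31 (edgeR adjusted p = 0.989). Top2a had 2.03, 1.199 and 1.28 CPM in overexpression and 0.965, 1.01 and 1.61 CPM in control. Overexpression replicate 1 was highest and control replicate 3 came next, so each group had 1 library well above its other 2. The Top2a means were 1.501 ± 0.458 and 1.19 ± 0.358 CPM, a fold of 1.26 with an interval of 0.823 to 1.93 (edgeR adjusted p = 0.757). Without overexpression replicate 1 the log2 fold change of Top2a was 0.059, in place of 0.33. That library is also the one with 729 CPM of choroid plexus genes, whose part in the Top2a value was not tested. Both genes were thinly counted, with 31 to 68 counts of Top2a and 111 to 193 of Mki67 per library.

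The wider genes of cell division were read from lists. Of 20 mitosis genes 15 had enough counts, and 0 passed in edgeR, DESeq2 or limma-voom. Ccnb1, Cdk1, Aurkb, Bub1 and Ube2c fell below the filter on low counts. All of these had lower means in overexpression, with groups that overlapped. Ccnb1 was at 0.183 against 0.278 CPM, Cdk1 at 0.124 against 0.232 CPM and Aurkb at 0.165 against 0.248 CPM. Bub1 was at 0.0586 against 0.127 CPM and Ube2c at 0.224 against 0.231 CPM. Among the 15 tested genes folds were above 1 for 13, the log2 values had a median of 0.21, and 1 had an unadjusted p under 0.05. That gene was Cenpe, a kinetochore motor, at 3.31 against 2.27 CPM (edgeR adjusted p = 0.423). Plk1, a mitotic kinase, was at 2.16 against 1.58 CPM (edgeR adjusted p = 0.585). Groups did not overlap for 2 of the tested genes above 1 and for 1 below, beside 15.1% of all tested genes. The latter was Tpx2, at 1.69 against 1.97 CPM (edgeR adjusted p = 0.766). The summed level of the 20 mitosis genes was 28.8 to 34.0 CPM in overexpression and 26.0 to 28.4 CPM in control libraries. Of the DNA replication genes all 17 were tested, 7 were above 1 and 10 below, the log2 median was -0.021, and 0 had an unadjusted p under 0.05. The nucleotide enzyme gene Dut was at 15.4 against 16.96 CPM and the helicase subunit gene Mcm2 at 4.27 against 4.81 CPM (edgeR adjusted p = 0.722 and 0.7499). Of 12 genes of cell cycle entry and exit 0 passed, 6 were above 1 and 6 below, and 4 had an unadjusted p under 0.05, beside 9.24% of all tested genes. Trp53 was at 19.6 against 22.8 CPM, and Cdkn1c, an inhibitor of cyclin-dependent kinases, at 2.11 against 1.14 CPM (edgeR adjusted p = 0.401 and 0.412). The other two were Cdkn1b, another such inhibitor, at 59.1 against 51.99 CPM, and Cdk6, a kinase of cell cycle entry, at 7.49 against 5.97 CPM (edgeR adjusted p = 0.506 and 0.539). Ccnd2, the D cyclin of hippocampal progenitors, was at 130 ± 16.7 against 125 ± 8.84 CPM (edgeR adjusted p = 0.891).

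Other cells of the tissue also divide, so their markers are given beside these values. Genes listed for oligodendrocyte precursors summed to 408 to 461 CPM in overexpression and 451 to 489 CPM in control. Of these 0 of 12 were past the edgeR threshold and 8 of 12 below 1, with a log2 median of -0.020. Gpr17, Cspg4, Olig1, Olig2 and Pdgfra of that list had folds from 0.979 for Gpr17 to 1.004 for Pdgfra. Sox10 was at 22.4 against 30.3 CPM and Bcas1 at 87.9 against 118 CPM (edgeR adjusted p = 0.240 for both). DESeq2 called both lower (adjusted p = 0.0232 and 0.00261). Enpp6 was at 4.75 against 6.61 CPM (edgeR adjusted p = 0.415). The groups did not overlap for Sox10, Bcas1 and Enpp6. How much of their signal came from dividing precursors, and not from later cells of the lineage, was not tested. Microglia markers summed to 305 to 357 against 314 to 342 CPM and endothelial markers to 250 to 254 against 224 to 266 CPM, each with 0 of 8 called by edgeR or DESeq2. With no filter on low counts, where 304 of 35633 genes were called, edgeR called Ly6c1 of the endothelial list higher (adjusted p = 0.045). Which cells carried Mki67 and Top2a was not tested.

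The rare markers of intermediate progenitors and neuroblasts were at the floor of what these libraries can measure. Eomes had 4, 14 and 11 counts in the overexpression libraries and 0, 9 and 4 in the control libraries, which is 0.119, 0.409 and 0.305 CPM against 0, 0.239 and 0.131 CPM. Overexpression replicate 1 lay below control replicates 2 and 3, so the groups overlapped. Eomes did not pass the filter on low counts. Its summed counts were 29 against 13, a ratio of 2.15 after scaling, and its 95% interval (exact, Clopper-Pearson) of 1.09 to 4.51 covers counting error only and not the spread between mice. With no filter edgeR gave a log2 fold change of 1.11 and an adjusted p of 0.748. The 0 in control replicate 1 allows a level of up to 0.0934 CPM (3 counts).

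Igfbpl1 had 0.537, 0.877 and 0.527 CPM in overexpression and 0.374, 0.691 and 0.295 CPM in control. Replicate 2 was the highest library in each group, and control replicate 2 exceeded 2 of the 3 overexpression libraries. The means were 0.647 ± 0.199 and 0.453 ± 0.210 CPM, a fold of 1.40 with an interval of 0.773 to 2.52 (edgeR adjusted p = 0.7495). Draxin was the only tested member with a fold below 1. It had 0.776, 0.877 and 0.499 CPM in overexpression and 1.15, 0.612 and 0.820 CPM in control, with the highest value in control replicate 1 and the lowest in overexpression replicate 3. The Draxin means were 0.717 ± 0.196 and 0.861 ± 0.273 CPM, a fold of 0.836 with an interval of 0.507 to 1.38 (edgeR adjusted p = 0.859). Without control replicate 1 the log2 fold change of Draxin was 0.013 in place of -0.26. Counting alone gave a coefficient of variation of 22.9% for Igfbpl1 and 19.4% for Draxin, against 37.2% and 30.1% observed within groups.

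Other genes listed for this stage also had groups that overlapped. Of 11 genes of intermediate progenitors and neuroblasts 10 were tested, 9 had a fold above 1 and 0 passed or had an unadjusted p under 0.05. The log2 values had a median of 0.12. How much of the signal of these 11 genes came from mature neurons was not tested. Elavl4, a neuronal RNA-binding protein, was at 65.3 against 57.9 CPM (edgeR adjusted p = 0.550). Calb2, the calretinin gene of immature granule cells and of mossy cells, was at 30.4 ± 5.71 against 24.9 ± 4.05 CPM (edgeR adjusted p = 0.667). Neurog2 ranged from 0.626 to 1.78 CPM in overexpression and from 0.452 to 1.41 CPM in control, a wider spread than the difference between the group means. Cajal-Retzius cells share Calb2 and Reln expression with other hippocampal cells. Their listed markers, which do not include Calb2, summed to 98.9 to 129 against 104 to 112 CPM. Reln, at 85.5 against 83.7 CPM, made up most of that sum. Of the 4 tested genes 0 were past the edgeR threshold, with 2 above 1 and 2 below.

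The markers of immature neurons, Dcx, Sox11 and Sox4, were well measured and differed in how closely the libraries agreed. Dcx had 33.3, 29.3 and 30.2 CPM in overexpression and 26.2, 26.1 and 30.9 CPM in control. Control replicate 3 lay among the overexpression libraries, and the other 2 control libraries lay below all of them. The Dcx means were 30.9 ± 2.12 and 27.7 ± 2.75 CPM, a fold of 1.12 with an interval of 0.989 to 1.26, and the log2 fold change was 0.16 ± 0.082 (SE). Its unadjusted p was 0.0719 and its adjusted p 0.585 in edgeR, and a two-sided exact permutation test over the libraries gave p = 0.3, where 3 libraries against 3 cannot go below 0.1.

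Sox11 had the smallest p of the members. It had 21.6, 25.6 and 29.2 CPM in overexpression and 23.0, 19.7 and 21.2 CPM in control, so that overexpression replicates 2 and 3 were above all control libraries and replicate 1 was below control replicate 1. The means were 25.5 ± 3.77 and 21.3 ± 1.63 CPM, a fold of 1.196 with an interval of 1.03 to 1.40, and the log2 fold change was 0.26 ± 0.10 (SE). Its unadjusted p was 0.0258 and its adjusted p 0.476 in edgeR, and the exact permutation p was 0.2. Leaving out overexpression replicate 3 gave a log2 fold change of 0.15 (edgeR adjusted p = 0.829), and leaving out overexpression replicate 1 gave 0.36 (edgeR adjusted p = 0.122).

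Sox4 was the steadiest member. It had 19.9, 20.2 and 21.6 CPM in overexpression and 19.3, 21.1 and 20.2 CPM in control, with both groups spread over the same range. The means were 20.6 ± 0.892 and 20.2 ± 0.920 CPM, a fold of 1.02 with an interval of 0.910 to 1.14 (edgeR adjusted p = 0.948). Its within-group coefficient of variation was 4.45%, close to the 3.80% that counting alone gives. Sox12, the remaining SoxC gene, was at 22.5 ± 3.16 against 25.0 ± 0.755 CPM (edgeR adjusted p = 0.645). Dclk1, the kinase relative of Dcx, was at 750 ± 43.9 against 733 ± 22.1 CPM (edgeR adjusted p = 0.897).

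Of 16 other genes listed for immature neurons 0 passed, 8 were above 1 and 8 below, and the log2 values had a median of 0.0014. Several were far above Dcx in level, such as Ncam1 (299 against 305 CPM), Nnat (305 against 298 CPM) and Stmn2 (252 against 255 CPM). How much of the signal of these 16 genes came from mature neurons was not tested. St8sia2, which makes the polysialic acid carried by NCAM on young neurons, had the smallest p of them. It had 3.43, 3.57 and 3.50 CPM in overexpression and 4.42, 5.53 and 4.13 CPM in control, and the groups did not overlap (edgeR adjusted p = 0.442). Tubb3, the neuronal tubulin, was at 170 against 183 CPM (edgeR adjusted p = 0.668). Their folds were below 1, where those of Dcx and Sox11 were above 1, and none of these 4 genes passed.

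**Figure D2:**
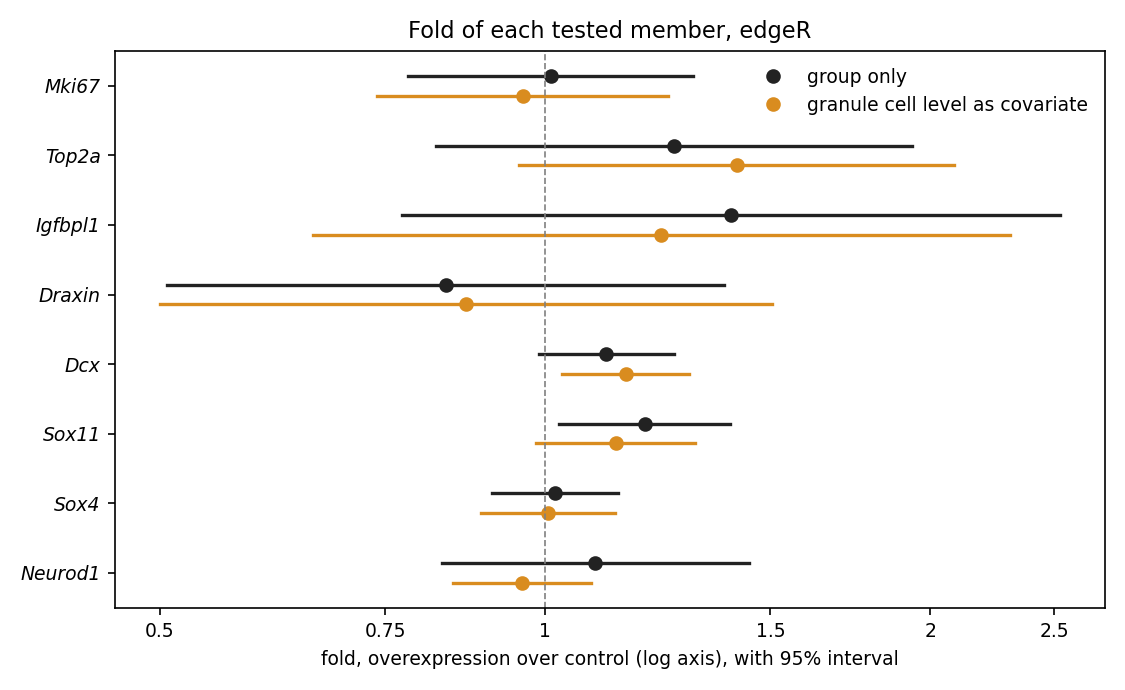
Fold of overexpression over control for the 8 tested members (x axis, log scale) with 95% intervals from edgeR, for the fit with group only (black) and with the granule cell level of each library as a covariate (orange). All black intervals but that of Sox11 span 1, and in the orange fit that of Sox11 spans 1 while that of Dcx does not.

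Neurod1 varied with the granule cell genes across libraries. It had 16.1, 25.8 and 25.1 CPM in overexpression and 21.4, 20.7 and 19.1 CPM in control. Overexpression replicate 1 had the least of all libraries, and overexpression replicates 2 and 3 had the most. The means were 22.3 ± 5.41 and 20.4 ± 1.18 CPM, a fold of 1.09 with an interval of 0.830 to 1.44 (edgeR adjusted p = 0.863). Without overexpression replicate 1 the log2 fold change was 0.32 in place of 0.13 (edgeR adjusted p = 0.137).

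Mature granule cell genes ordered the libraries much the same way. Prox1, the transcription factor that sets granule cell identity, had 68.2, 137 and 123 CPM in overexpression and 95.6, 112 and 86.4 CPM in control. Calb1, the calbindin gene of mature granule cells, had 94.3, 133 and 139 CPM against 102, 97.8 and 107 CPM. For both, overexpression replicate 1 had the least and replicates 2 and 3 had the most. Of 14 such genes 13 had a fold above 1 (median of 0.24 on the log2 scale) and 0 passed in edgeR, DESeq2 or limma-voom (2 had an unadjusted p under 0.05). Pdzd2 and Tdo2 had the smallest p, at 81.1 against 68.4 CPM and 3.58 against 2.46 CPM (edgeR adjusted p = 0.423 and 0.506). With no filter on low counts, where 304 of 35633 genes were called, edgeR called Pdzd2 higher (adjusted p = 0.0176). Without overexpression replicate 1 edgeR called 3 of the 14 higher: Calb1, Glis3 and Rfx3. That fit called 63 of 19838 genes, against 9 of 19354 with all libraries. The library left out had the lowest mean log2 level of the 14 genes, so leaving it out raises their overexpression mean.

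Across the 6 libraries the log2 level of Neurod1 correlated with the mean log2 level of the 14 granule cell genes, with Pearson's r = 0.96 and Spearman's rho = 0.94. The exact permutation p was 0.00417 for r and 0.0167 for rho, or 0.0333 and 0.133 after adjustment over the 8 tested members. Without the 2 libraries farthest from the median granule level r was 0.91. The points share depth and scaling of the same libraries. For the other 7 members r ran from -0.54 for Top2a to 0.68 for Sox11, with adjusted exact permutation p-values of 0.376 to 0.55. When the granule cell level entered edgeR's fit as a covariate, the log2 fold change of Neurod1 was -0.060, with an interval of the fold of 0.848 to 1.09. Dcx then had a log2 fold change of 0.21 and an interval of the fold of 1.03 to 1.30 (edgeR adjusted p = 0.440), and Sox11 0.18 with an interval of 0.984 to 1.31 (edgeR adjusted p = 0.608). In that fit too 0 members passed.

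**Figure D3:**
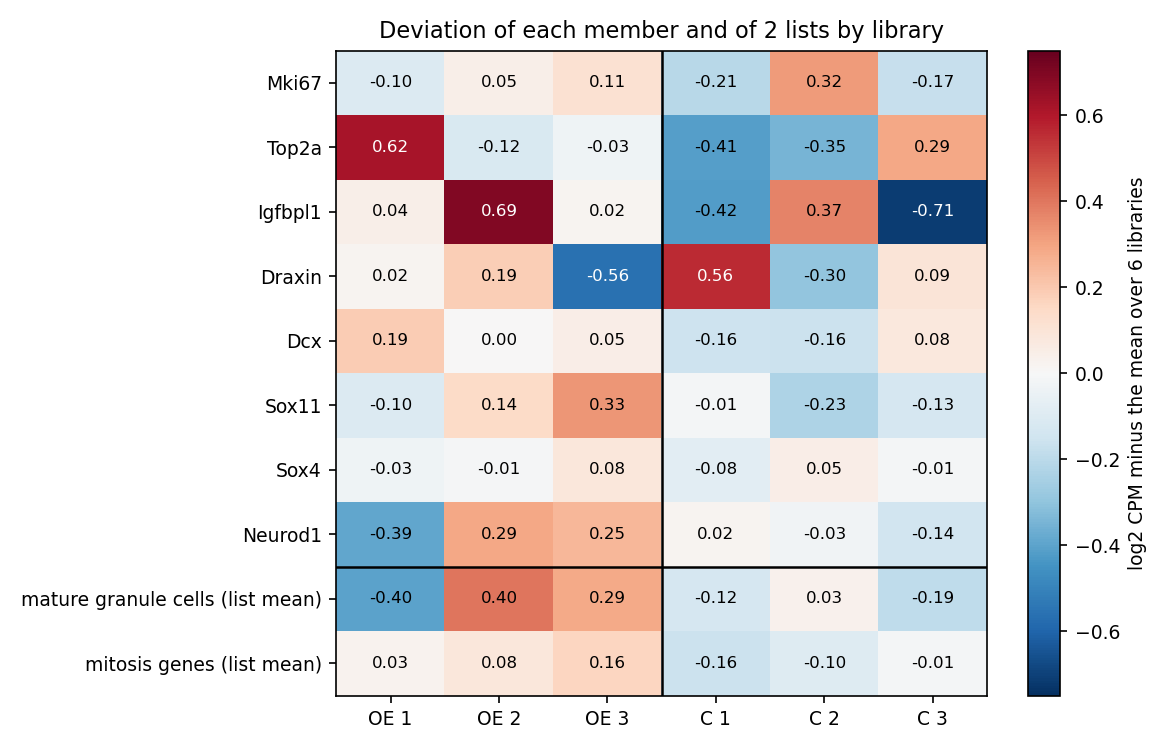
Log2 CPM of each tested member, and mean log2 CPM of the granule cell and mitosis lists, minus the mean over the 6 libraries (colour and printed value). Neurod1 and the granule cell list are lowest in overexpression replicate 1 and highest in overexpression replicates 2 and 3, while Dcx and Top2a are highest in overexpression replicate 1.

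The members did not vary as a block. Over the 28 pairs of tested members 13 had a Pearson's r above 0, and the median r was -0.10. Dcx and Top2a had the closest pattern, with r = 0.96 and rho = 0.94 over 6 libraries. The exact permutation p was 0.00278 for r and 0.0167 for rho, or 0.0778 and 0.467 adjusted over the 28 pairs, and r was 0.97 without the 2 libraries farthest from the median of Dcx. Both were highest in overexpression replicate 1, then in control replicate 3. Sox4 and Draxin were as closely related in the opposite direction, with r = -0.96 and rho = -0.77 (exact permutation p = 0.00833 and 0.103, or 0.117 and 0.719 adjusted), and r was -0.82 without the 2 libraries farthest from the median of Sox4. Mki67 and Top2a, both genes of dividing cells, had r = -0.38 and rho = -0.029 (exact permutation p = 0.472 and 1). Sox11 and Sox4 had r = 0.34 and rho = 0.20 (exact permutation p = 0.536 and 0.714).

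The genes with a pattern most like Dcx were sought among 15751 genes with a mean of at least 1 CPM. They were Slc16a14, Tnfaip1, Gm31614, Lrrc4c and Rps4x, with r of 0.98, 0.98, 0.98, 0.98 and 0.97 over 6 libraries. Slc16a14, of a family of monocarboxylate transporters, had 14.2, 11.8 and 11.9 CPM in overexpression and 10.6, 10.7 and 13.0 CPM in control, and it was also the gene most like Top2a (r = 0.996). The next 4 for Top2a were 3110039I08Rik, Gskip, 2210408F21Rik and Ahcyl1, with r of 0.98 to 0.99. No member was among either set of 5. The 5 values of each set were the highest among 15751 genes, over only 6 libraries that share depth and scaling. They are a description, and how often such values arise by chance was not tested.

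Per length, the members spanned more than 2 orders of magnitude. Levels were divided by the length of the union of exons in GENCODE M21 and averaged over the 6 libraries. Neurod1 had the highest level at 7.83 CPM per kilobase, followed by Sox4 at 4.25, Sox11 at 2.81, Dcx at 2.32, Mki67 at 0.411, Igfbpl1 at 0.169, Draxin at 0.152, Top2a at 0.150 and Eomes at 0.0483 CPM per kilobase. The 6 libraries of Neurod1 (5.90 to 9.45 CPM per kilobase) lay above those of Sox4 (4.02 to 4.50), and those of Sox4 above Sox11 (2.37 to 3.51). Sox11 and Dcx (2.06 to 2.63) overlapped, as did Igfbpl1, Draxin and Top2a with each other. With the longest transcript as length, Dcx was at 3.23 and Top2a at 0.258 CPM per kilobase, which puts Dcx above Sox11 and Top2a above Igfbpl1 and Draxin. The relatives used across mature neurons were higher on the same scale. Dclk1 was at 48.5 against 2.32 for Dcx. Top2b, a topoisomerase II also kept by cells that no longer divide, was at 9.29 against 0.150 for Top2a. Prox1 was at 12.4 CPM per kilobase.

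**Figure D4:**
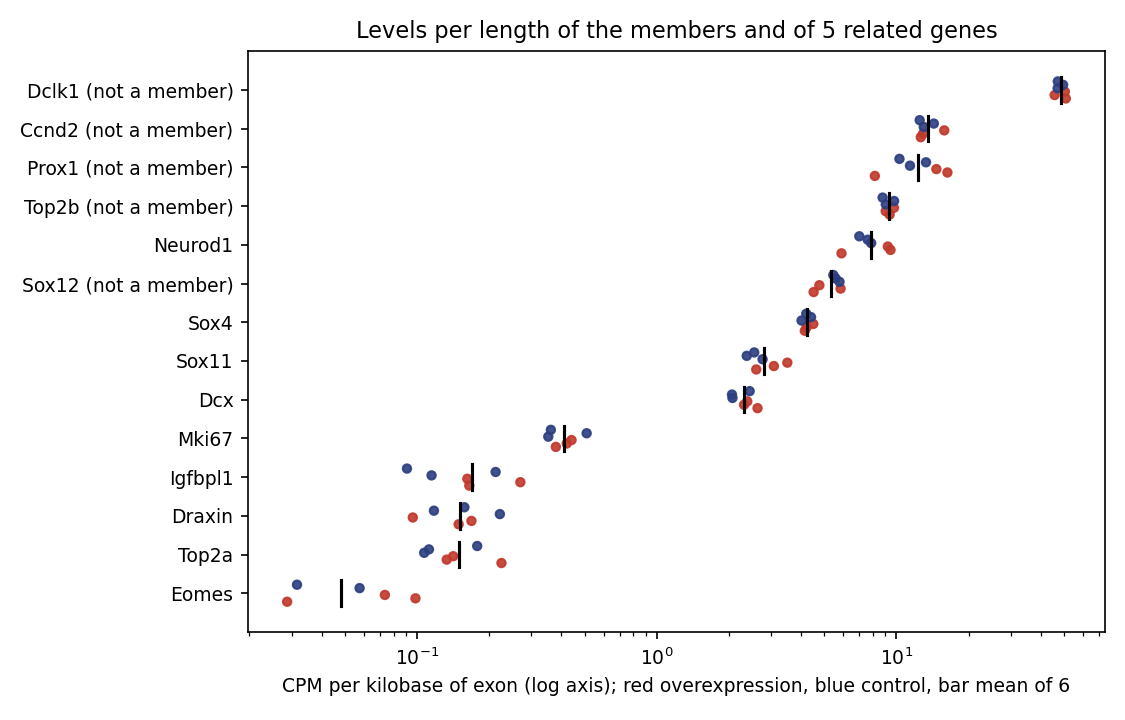
Level in CPM per kilobase of exon (x axis, log scale) of the 9 members and of 5 related genes in each library (red overexpression, blue control), with the mean of 6 as a bar. Control replicate 1 had 0 counts of Eomes and is not drawn in that row; the members run from Eomes at 0.0483 to Neurod1 at 7.83.

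The stem cell list held the smallest p of the lists around neurogenesis, in a gene that astrocytes share. Of 15 radial glia-like stem cell genes 13 were tested and 0 passed in edgeR, with 8 above 1 and 5 below (median of 0.020 on the log2 scale). Gfap, the filament protein of stem cells and of astrocytes, had 338, 328 and 401 CPM in overexpression and 465, 525 and 533 CPM in control. The groups did not overlap, the log2 fold change was -0.51 ± 0.080 (SE) and the edgeR adjusted p was 0.0862, while DESeq2 called Gfap lower (adjusted p = 7.62e-07). edgeR called Gfap lower without overexpression replicate 3 or control replicate 1 (adjusted p = 0.00228 and 0.0107) and with no filter on low counts (adjusted p = 6.95e-16). With no filter edgeR called 304 of 35633 genes, against 9 of 19354 with the default filter. It did not call Gfap when any of the other 4 libraries was left out, and limma-voom did not call it. Id4, a regulator of stem cell quiescence, was at 72.2 against 63.0 CPM (edgeR adjusted p = 0.401) and Sox2, a stem cell and astrocyte factor, at 33.02 ± 1.83 against 35.0 ± 4.14 CPM (edgeR adjusted p = 0.793). Astrocyte markers without Gfap had 4 of 8 above 1 (median of 0.0019 on the log2 scale) and summed to 5383 to 5927 against 5199 to 5773 CPM. Aqp4 and Gjb6 had the smallest p among them, at 169 against 182 CPM and 64.9 against 54.9 CPM (edgeR adjusted p = 0.652 and 0.741).

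Signals of the niche had 0 of 27 genes past the threshold in edgeR, DESeq2 or limma-voom, with 18 above 1 and 9 below (median of 0.032 on the log2 scale). Htr1a, a serotonin receptor implicated in the control of progenitor division, was at 46.9 against 40.8 CPM, and Dll1, a Notch ligand, at 7.34 against 8.86 CPM (edgeR adjusted p = 0.353 and 0.494). Among 17 paralogues and partners of the members 0 passed in edgeR, DESeq2 or limma-voom. Igfbp7 was at 12.7 against 10.3 CPM and Dclk3 at 13.4 against 16.03 CPM (edgeR adjusted p = 0.418 and 0.467), and Top2b was at 137 ± 5.46 against 134 ± 7.74 CPM. Over the 9 lists around neurogenesis together, 141 genes were tested, 0 passed in edgeR, Gfap alone passed in DESeq2, 16 (11.3%) had an unadjusted p under 0.05 and 18 (12.8%) had groups that did not overlap, beside 9.24% and 15.1% of all tested genes.

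**Figure D5:**
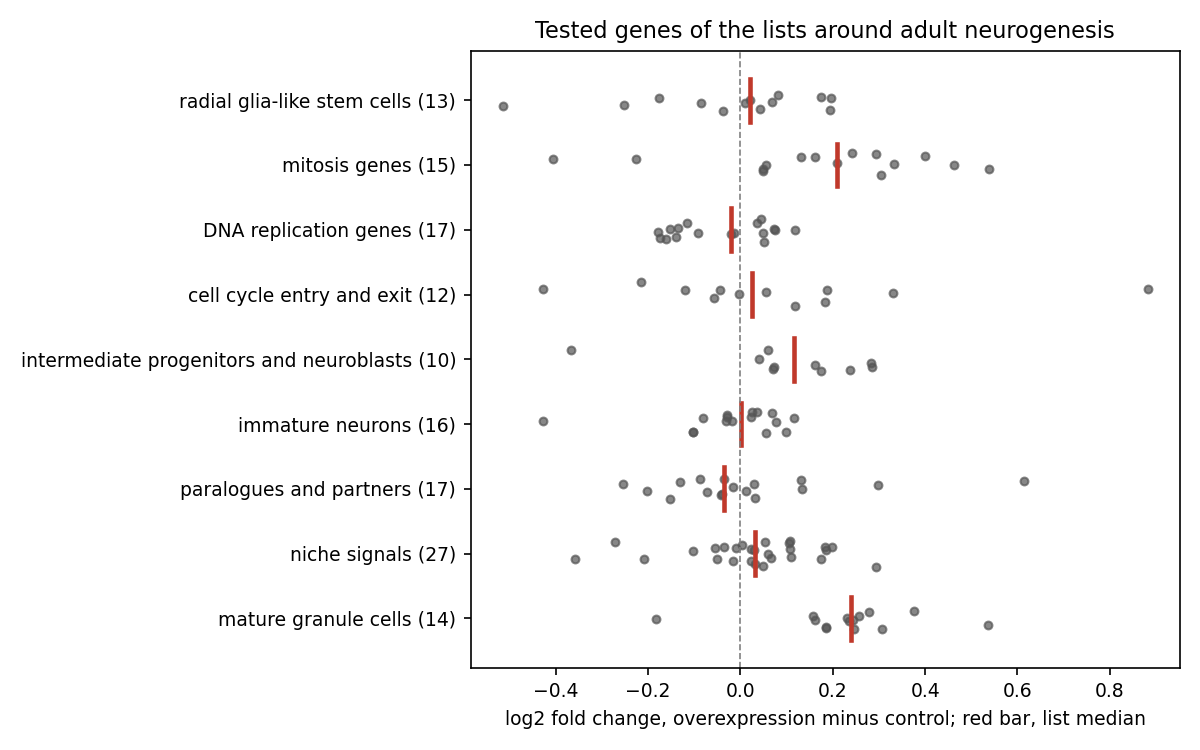
Log2 fold change of overexpression minus control (x axis) for each tested gene (grey points, number tested in brackets) of the 9 lists around neurogenesis, with the list median as a red bar. Medians run from -0.036 for paralogues and partners to 0.24 for mature granule cells, and no point passed the edgeR threshold.

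Markers of neighbouring tissue and of other neurons set these values in context. Pyramidal cell markers had 4 of 8 above 1 with a log2 median of -0.015, and interneuron markers 4 of 8 with 0.0051. Neurod6 and Spink8 of the first list were at 146 against 168 CPM and 10.5 against 9.38 CPM, and Gad2 and Gad1 of the second at 154 against 146 CPM and 293 against 280 CPM (edgeR adjusted p = 0.542, 0.681, 0.744 and 0.763). Markers of neurons in general had 0 of 5 above 1, with a log2 median of -0.078. GABAergic neuroblasts of the ventricular wall also express Dcx and Sox11. Their markers, such as Sp8 at 1.26 against 1.49 CPM, had 3 of 8 above 1, and the 8 genes summed to 69.7 to 73.9 against 72.0 to 74.8 CPM. Ependymal markers, of the ventricular lining, had 2 of 8 above 1 and summed to 17.3 to 20.9 against 18.4 to 28.8 CPM. Meningeal markers had 7 of 7 above 1 and summed to 107 to 138 against 76.5 to 122 CPM. Dcn, at 66.1 against 59.6 CPM, was the largest part of that sum. Of the 7 meningeal genes 5 had an unadjusted p under 0.05 in edgeR. With no filter on low counts, where 304 of 35633 genes were called, edgeR called these 5 higher: Col1a1, Col1a2, Foxc1, Slc22a6 and Slc6a13. The 2 smallest p in the remaining lists belonged to Trp73 (2.40 against 3.19 CPM) and Ebf3 (0.897 against 1.09 CPM) of Cajal-Retzius cells, Sall1 and Tmem119 of microglia (26.8 against 29.8 and 24.4 against 22.3 CPM), and Ly6c1 and Tek of endothelium (30.1 against 24.9 and 15.4 against 16.9 CPM). They also belonged to Enkur and Tekt1 of ependyma (1.80 against 2.79 and 1.83 against 2.498 CPM), Slc17a7 and Snap25 of neurons (1275 against 1393 and 1871 against 1982 CPM), and Col1a1 and Col1a2 of meninges (11.3 against 7.003 and 22.5 against 11.9 CPM). In the choroid plexus list they were Otx2, at 3.76, 0.702 and 0.666 CPM in overexpression and 0.289 CPM on average in control, and Clic6, at 19.7, 2.602 and 3.86 CPM against an average of 0.530 CPM. Overexpression replicate 1 was the highest library for both, and without it the log2 fold change of Clic6 was 2.55 in place of 3.97. In that fit, where 63 of 19838 genes were called, edgeR called Clic6 higher (adjusted p = 0.0492). It did not with all libraries (adjusted p = 0.489). Over these 12 lists of cell types edgeR called 0 of 91 tested genes, and 13 (14.3%) had an unadjusted p under 0.05, beside 9.24% of all tested genes. DESeq2 called 6 of the 91 (Sox10, Bcas1, Otx2, Clic6, Col1a1 and Col1a2), beside 0.553% of all genes it tested. The part of these other tissues in the members' values was not tested.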

How the data were processed

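Total RNA of ventral hippocampus was taken with Trizol, poly(A) RNA was selected and libraries were strand-marked through dUTP, per the labels' protocols. The authors deposited raw counts per Ensembl gene, in 1 table of 6 libraries with 0 unused columns of samples. Per the submitters' processing notes, the tools were featureCounts 2.0.3, STAR 2.7.10 and Trimmomatic 0.36, and builds GRCm39 and mm10 both appear, with no role given. The sources used here do not name the annotation or strand setting, so the only coordinates printed are those of the RefSeq promoters, and reads of overlapping genes could be shared. Symbols were found for 51948 of 56941 identifiers, including all 9 members and all 239 list genes. Promoters came from RefSeq (GRCm38.p6) and lengths from GENCODE M21.

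Each library is from a separate mouse, per the series' design text. No 2 libraries agreed within sampling noise (chi-square per degree of freedom of 4.28 to 12.9). Counts were tested with edgeR 4.0.16 (quasi-likelihood, robust, TMM, default filter on low counts, group as the only term) in R 4.3.3. Benjamini-Hochberg adjustment ran over all 19354 genes, with a threshold of 0.05. Alternatives used DESeq2 1.42.0, limma 3.58.1 (voom) and the settings given at the end. The common biological coefficient of variation was 0.0866. Named genes are the 9 members, Negr1, the 2 smallest p of a list with no call, 9 stage markers and relatives fixed by name, and the 5 genes most like Dcx or Top2a; genes named beyond these were chosen after their values were seen, and 1 gene that the rule names is not reported here. Members and lists were chosen with earlier results of these data known.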

Additional observations from a re-analysis of the deposited data

How the results depend on the processing

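No member passed an adjusted p of 0.05 in any of the 14 other fits, or of 0.1 in the edgeR fit with group only, and Dcx, Sox11, Igfbpl1 and Top2a had a fold above 1 in each fit that tested them. Over these fits the log2 fold change was 0.10 to 0.24 for Dcx, 0.15 to 0.36 for Sox11, 0.20 to 0.94 for Igfbpl1 and 0.059 to 0.60 for Top2a, with smallest adjusted p-values of 0.440, 0.117, 0.650 and 0.610. Other members changed sign close to 0. Sox4 was at -0.0068 without overexpression replicate 3 and -0.0023 without control replicate 1 (highest 0.061), and Draxin was at 0.013 without control replicate 1 (lowest -0.46). With the granule cell level as a covariate Neurod1 was at -0.060 and Mki67 at -0.058. Mki67 lay between -0.077 and 0.21 with 1 library left out, and was at -0.031 without overexpression replicate 3 and, for control replicates 1 and 3 left out, at -0.077 and -0.064. Fits that kept Eomes gave a log2 fold change of 0.55 to 2.06 (adjusted p = 0.473 to 0.902). The number of all genes called was 9, and 107 with DESeq2, 5 with limma-voom, 304 with no filter, 5 with a filter of 1 CPM in 3 libraries, 30 with the granule covariate, 19 at a threshold of 0.1 and 2 to 63 when 1 library was left out. The cause of these shifts was not tested. Over the 21 lists edgeR called 0 of 229 genes, DESeq2 7, limma-voom 0, edgeR with no filter 10 of 239, with the granule covariate 3 and with 1 library left out 0 to 5. With the replicate number as a block 26 genes and 0 members were called, and 3 list genes: Gfap (adjusted p = 0.00754), Igfbp2 (higher, adjusted p = 0.0172) and Col1a2 (adjusted p = 0.00473). Same-numbered libraries deviated together only weakly (correlations of 0.017, 0.017 and 0.023), though each matched its own number best, so the numbers were not taken as pairs. Counts of 0 to 37 per library for Eomes, Igfbpl1 and Draxin limit what can be seen in them.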
